A study of Hordeum vulgare with 30 samples.

Results

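A carbonic anhydrase gene (HORVU.MOREX.r3.5HG0487570) and an aldehyde dehydrogenase gene (HORVU.MOREX.r3.2HG0173750) were followed in barley roots across all 30 libraries of a waterlogging experiment. They are 2 of the 35826 genes of the count table and both passed the filter on low counts, which left 20576 genes for testing. The names are those that the study's gene tables give, and the identifiers place the genes on chromosomes 5H and 2H of the Morex version 3 genome. Both genes were chosen because they were lower under waterlogging in every variety, so the comparison of waterlogged with control roots is given for them as a description, without a test.

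Waterlogged roots came from plants grown in soil for 10 days and then waterlogged for 24 h, and control roots from plants of the same variety and age with normal watering. The 5 varieties were Golden Promise, a two-row spring variety used as a model, the two-row winter varieties Infinity and Regina, and the six-row winter varieties Passport and Pilastro. None carried a transgene or mutation named in the labels. Each of the 10 groups, 1 per variety and treatment, held 3 libraries, and the roots of 3 plants were pooled for each library, so cell types within the root were not separated and a lower level of an mRNA cannot be told apart from a smaller share of the cells that hold it.

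Carbonic anhydrases catalyze the interconversion of carbon dioxide and bicarbonate. Plants hold several unrelated families of them (alpha, beta and gamma), the most abundant of which act in green tissue, while forms in roots and other organs supply bicarbonate to reactions such as the carboxylation of phosphoenolpyruvate. Aldehyde dehydrogenases form a large superfamily that oxidizes aldehydes to carboxylic acids with NAD or NADP as the acceptor. In flooded roots, pyruvate decarboxylase makes acetaldehyde, which alcohol dehydrogenase reduces to ethanol. Aldehyde dehydrogenases can instead oxidize acetaldehyde to acetate, which acetyl-coenzyme A synthetase returns to metabolism. Which family or subgroup the 2 genes belong to was not given in the sources used here.

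Total counts per library lay between 9601984 and 12349136, with a median of 12019015 in the 15 waterlogged and 11976003 in the 15 control libraries. The carbonic anhydrase gene had 132 to 979 counts per library and the aldehyde dehydrogenase gene 1069 to 2322. Levels are given below as CPM, the counts scaled to a common library size after TMM normalization. CPM are not divided by gene length, so the levels of the 2 genes are not compared with each other. The treatment labels were checked with the hypoxia marker genes HvADH1, HvPDC1 and HvHB, for which the waterlogged libraries lay above the control libraries without overlap in 5 of 5 varieties. HvADH1, which encodes an alcohol dehydrogenase, had a median of 478 CPM in waterlogged roots and 41.7 CPM in control roots.

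The carbonic anhydrase mRNA was the more strongly lowered of the pair. Its mean level in waterlogged roots was 22.8% of the control level in Regina, 32.5% in Pilastro, 36.7% in Infinity, 40.0% in Golden Promise and 42.2% in Passport. In Golden Promise it had 19.6, 18.7 and 29.4 CPM in waterlogged roots, against 55.2, 57.3 and 56.7 CPM in control roots. The control libraries of this variety lay close together (SD 1.11 CPM), whereas the third waterlogged library stood above the others. In Infinity it had 13.1, 19.5 and 20.6 CPM in waterlogged roots, against 49.1, 60.9 and 35.1 CPM in control roots. The lowest of these control libraries was still 1.71 times the highest waterlogged one.

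In Passport the carbonic anhydrase gene had 14.8, 13.8 and 22.3 CPM in waterlogged roots, against 46.8, 39.3 and 34.6 CPM in control roots. This was the variety with the narrowest gap between the treatments, 12.3 CPM between the highest waterlogged and the lowest control library. In Pilastro it had 20.0, 12.2 and 11.6 CPM in waterlogged roots, against 56.1, 38.7 and 39.6 CPM in control roots. In Regina it had 17.2, 14.0 and 12.6 CPM in waterlogged roots, against 43.1, 61.8 and 87.4 CPM in control roots. The Regina control libraries were the most spread of the 10 groups, with an SD of 22.2 CPM, and the third of them held the highest value of all 30 libraries.

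The aldehyde dehydrogenase mRNA was lowered less, and its libraries were less spread. Its mean level in waterlogged roots was 60.0% of the control level in Regina, 64.7% in Pilastro, 69.8% in Passport, 74.0% in Golden Promise and 74.9% in Infinity. In Golden Promise it had 111, 117 and 122 CPM in waterlogged roots, against 156, 156 and 161 CPM in control roots. Both groups of this variety were tight, with SDs of 5.16 CPM under waterlogging and 3.14 CPM in the control. In Infinity it had 107, 106 and 134.7 CPM in waterlogged roots, against 155, 166 and 143 CPM in control roots. The third waterlogged library of Infinity was the highest of all waterlogged libraries and came within 8.53 CPM of the lowest Infinity control library.

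In Passport the aldehyde dehydrogenase gene had 100.1, 112 and 120.0 CPM in waterlogged roots, against 164, 163 and 148 CPM in control roots. In Pilastro it had 99.0, 109.9 and 105 CPM in waterlogged roots, against 192, 135.8 and 158 CPM in control roots. The second Pilastro control library was the lowest of all control libraries, and the first was among the highest. In Regina it had 119, 104 and 118 CPM in waterlogged roots, against 169.6, 203 and 195 CPM in control roots. The gap between the treatments was widest in Regina, where 51.0 CPM lay between the highest waterlogged and the lowest control library.

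**Figure D1:**
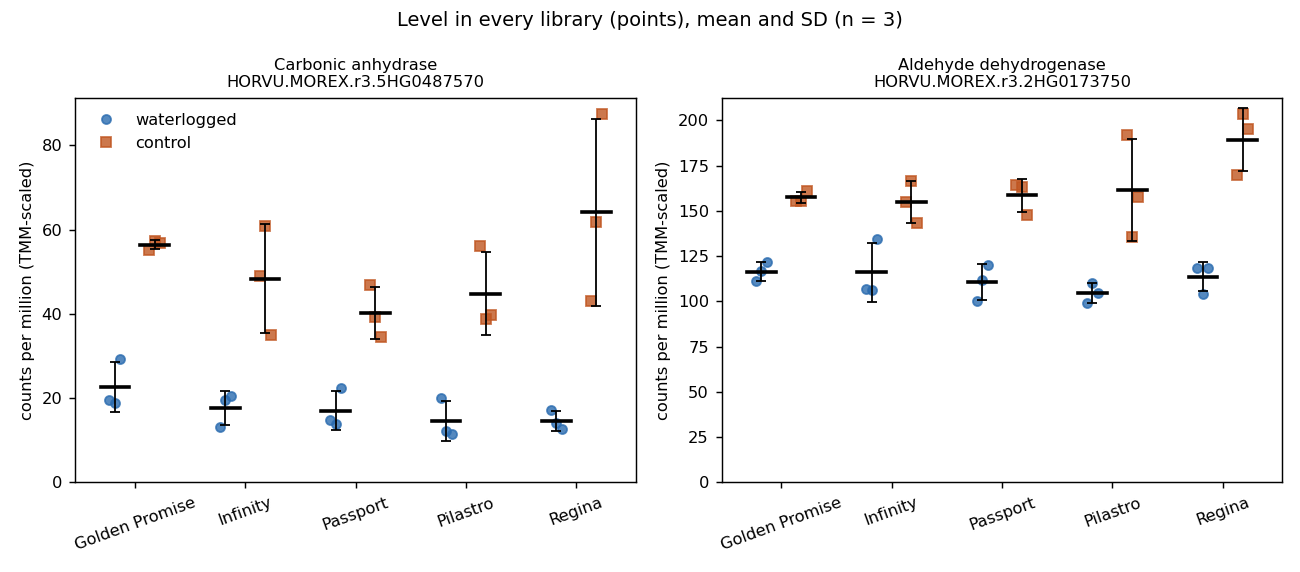
Level of the carbonic anhydrase gene (left) and the aldehyde dehydrogenase gene (right) in CPM on the vertical axis, by variety, with waterlogged libraries as blue circles left of the control libraries as orange squares; black lines are the mean and SD of 3 libraries. All waterlogged libraries lie at or below 29.4 CPM (carbonic anhydrase) and 134.7 CPM (aldehyde dehydrogenase), and all control libraries at or above 34.6 and 135.8 CPM.

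Within each variety, the waterlogged libraries of both genes lay below the control libraries without overlap. Of all genes tested, 0.486% did so in each of the 5 varieties. Taken variety by variety, 5.7% of the genes did so in Golden Promise, 12.5% in Infinity, 11.7% in Pilastro, 10.6% in Passport and 8.09% in Regina. The treatments were also apart across varieties. For the carbonic anhydrase gene, the 15 waterlogged libraries ran from 11.6 to 29.4 CPM with a median of 17.2, against 34.6 to 87.4 CPM with a median of 49.1 in the 15 control libraries. For the aldehyde dehydrogenase gene, the waterlogged libraries ran from 99.0 to 134.7 CPM with a median of 111, against 135.8 to 203 CPM with a median of 161 in the control libraries. The gap between the treatments was 5.22 CPM for the carbonic anhydrase gene and 1.14 CPM for the aldehyde dehydrogenase gene, so the second separation rested on Infinity waterlogged library 3 and Pilastro control library 2. Of all genes tested, 0.068% (14 genes, these included) had all waterlogged below all control libraries. As the genes were chosen on this contrast, these shares describe where they stand and are no evidence for the change.

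On the log2 scale of the edgeR fit, the carbonic anhydrase gene changed by −2.13 in Regina (SE 0.28), −1.62 in Pilastro (SE 0.28), −1.45 in Infinity (SE 0.28), −1.32 in Golden Promise (SE 0.27) and −1.25 in Passport (SE 0.27). The aldehyde dehydrogenase gene changed by −0.74 in Regina, −0.63 in Pilastro, −0.52 in Passport, −0.43 in Golden Promise and −0.42 in Infinity, each with an SE of 0.11. The change of the carbonic anhydrase gene was thus the larger one in all 5 varieties, by 0.73 (Passport) to 1.40 (Regina) log2 units. Regina and Pilastro gave the lowest values for both genes, while the order of the other 3 varieties was not the same. The spread of the changes across varieties (SD 0.35 for the carbonic anhydrase and 0.13 for the aldehyde dehydrogenase gene) can be set beside the standard errors of a single variety, 0.27 to 0.28 and 0.11. Whether the changes differ between varieties was not tested for these 2 genes, since the contrast in which they were chosen is part of that difference.

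**Figure D2:**
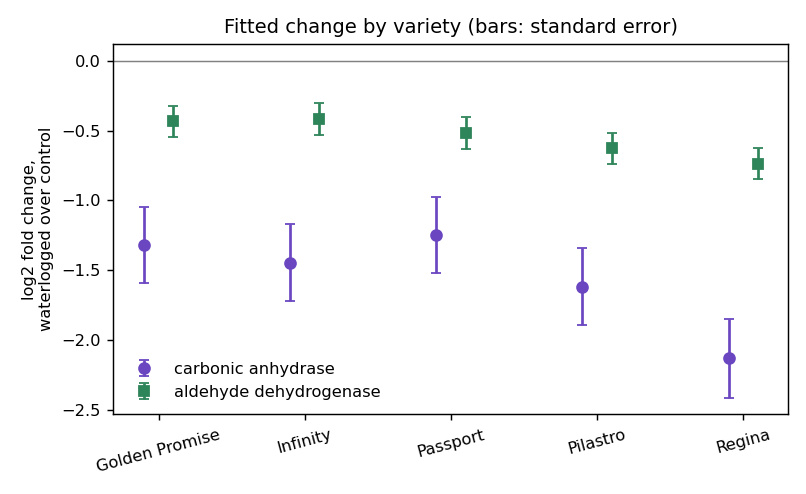
Fitted log2 fold change of waterlogged over control roots (vertical axis) in each variety for the carbonic anhydrase gene (purple circles) and the aldehyde dehydrogenase gene (green squares); bars are standard errors of the edgeR fit. The carbonic anhydrase values lie between −2.13 and −1.25 and the aldehyde dehydrogenase values between −0.74 and −0.42, with the lowest of each in Regina.

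RNA of green tissue was looked for because carbonic anhydrases are abundant in leaves. The 4 markers were the ribulose bisphosphate carboxylase small chain, ribulose bisphosphate carboxylase/oxygenase activase, protochlorophyllide reductase and chlorophyll synthase. Their summed level ran from 31.6 to 42.6 CPM in waterlogged and from 40.4 to 47.5 CPM in control roots, most of it from chlorophyll synthase (27.6 to 40.7 CPM in waterlogged and 32.0 to 41.4 CPM in control roots). The small chain had 0 to 25 counts in waterlogged and 6 to 40 counts in control libraries, and protochlorophyllide reductase was at 0 in 10 of 15 waterlogged and 9 of 15 control libraries. The activase had 5 to 56 counts in waterlogged and 25 to 114 counts in control libraries, with a median of 2.26 CPM in waterlogged and 4.92 CPM in control roots. Its log2 fold change was negative in all 5 varieties, from −1.99 to −0.70, and it was called lower in 1 variety, the only call among the 3 markers tested. Of all genes tested, 7.9% were called in at least 1 variety, in either direction. The activase was known by name from the study's list of changed genes. The part of green tissue in the lower carbonic anhydrase level was not tested.

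Whether the varieties differed in the level of the 2 genes was tested on the mean of waterlogged and control roots, a measure independent of the contrast that chose them. The carbonic anhydrase gene had a geometric mean level of 35.5 CPM in Golden Promise, 30.1 in Regina, 28.8 in Infinity, 25.9 in Passport and 25.2 in Pilastro. The differences did not pass the edgeR quasi-likelihood F-test across the 5 varieties (adjusted p = 0.170). For the aldehyde dehydrogenase gene, Regina had a level of 147 CPM, Golden Promise 135 CPM, Infinity 134 CPM, Passport 132 CPM and Pilastro 129.5 CPM, with an adjusted p of 0.321 by the same edgeR test. By comparison, 47.8% of all genes tested were called in this test.

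None of the 10 pairs of varieties was called for either gene. Of all genes tested, 26% were called between Golden Promise and Infinity, 19.4% between Golden Promise and Passport, 30% between Golden Promise and Pilastro and 18.9% between Golden Promise and Regina. Between winter varieties the share was 9.25% for Infinity and Regina, 11.5% for Passport and Pilastro, 15% for Passport and Regina, 16.1% for Infinity and Passport, 20.1% for Pilastro and Regina and 25.3% for Infinity and Pilastro. The pair with the largest difference in carbonic anhydrase level was Golden Promise and Pilastro, where Golden Promise was higher by 0.48 log2 units (SE 0.19, edgeR adjusted p = 0.0599). Its approximate 95% interval ran from 0.11 to 0.85, and the intervals of all 10 pairs lay between −0.64 and 0.85. This pair was called without Golden Promise waterlogged library 2 (edgeR adjusted p = 0.0497), Pilastro control library 1 (edgeR adjusted p = 0.0322), Pilastro waterlogged library 1 (edgeR adjusted p = 0.0206), Regina control library 1 (edgeR adjusted p = 0.0457) or Regina control library 3 (edgeR adjusted p = 0.0366). The largest difference in aldehyde dehydrogenase level was that between Pilastro and Regina, with a log2 difference of −0.17 (SE 0.079, edgeR adjusted p = 0.125, approximate 95% interval −0.33 to −0.02). This pair was called without Pilastro control library 1 (edgeR adjusted p = 0.0233). The intervals of all 10 pairs for this gene lay between −0.33 and 0.21. In both pairs the sample names of Pilastro number the libraries differently from those of the other variety, so variety and numbering cannot be told apart.

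The levels in control or waterlogged roots alone are part of the contrast that chose the genes and are therefore given without a test. The carbonic anhydrase level in control roots was 64.1 ± 22.2 CPM in Regina, 56.4 ± 1.11 in Golden Promise, 48.4 ± 12.9 in Infinity, 44.8 ± 9.80 in Pilastro and 40.2 ± 6.16 in Passport (SD, n = 3 each). Each variety overlapped with its neighbor in this order.

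The aldehyde dehydrogenase level in control roots was 189 ± 17.6 CPM in Regina, 162 ± 28.2 in Pilastro, 159 ± 9.31 in Passport, 157 ± 3.14 in Golden Promise and 155 ± 11.6 in Infinity (SD, n = 3 each). Regina stood 27.7 CPM above the next variety, Pilastro, which is less than the Pilastro SD.

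Under waterlogging the order of the varieties was not the same as in control roots. For the carbonic anhydrase gene, Golden Promise had 22.6 ± 5.91 CPM, Infinity 17.7 ± 4.03 CPM, Passport 17.0 ± 4.64 CPM, Regina 14.6 ± 2.33 CPM and Pilastro 14.6 ± 4.68 CPM (SD, n = 3 each). The aldehyde dehydrogenase level was 116 ± 5.16 CPM in Golden Promise, 116 ± 16.2 in Infinity, 114 ± 8.25 in Regina, 111 ± 10.0 in Passport and 105 ± 5.45 in Pilastro (SD, n = 3 each). In the order of all 10 group means of either gene, the step between the lowest control and the highest waterlogged group was the only one at which the libraries of neighboring groups did not overlap.

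Because libraries of 1 group share variety and treatment, their deviations from the group mean show whether the genes varied together apart from both. The deviations of log2 CPM had an SD of 0.28 for the carbonic anhydrase and 0.11 for the aldehyde dehydrogenase gene, and had the same sign in 21 of 30 libraries. Pearson's r was 0.55 over the 30 libraries (permutation p = 0.0124, adjusted p = 0.0165) and Spearman's rho 0.53 (permutation p = 0.0188, adjusted p = 0.0251), with p-values from 100000 two-sided permutations within groups, adjusted over 4 relations. In the 15 waterlogged libraries r was 0.32 (permutation p = 0.337, adjusted p = 0.337) and rho 0.22 (permutation p = 0.510). In the 15 control libraries r was 0.76 (permutation p = 0.00785, adjusted p = 0.0157) and rho 0.81 (permutation p = 0.00772, adjusted p = 0.0154). The difference between the treatments was not tested. The permutations treat the 10 groups as independent. Same-numbered waterlogged and control libraries deviated together over many genes in Passport (r of 0.20 to 0.41) and Regina (0.18 to 0.50). In the other varieties the values were mixed, from −0.04 to 0.31 in Golden Promise, −0.09 to 0.24 in Infinity and −0.07 to 0.54 in Pilastro. The p-values that join both treatments may therefore be too small. How many other pairs of genes varied together as closely was not tested, so the relation is not shown to be particular to these genes.

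Without Regina control library 3 and Pilastro waterlogged library 1, the libraries farthest from the median of the carbonic anhydrase deviations, r was 0.70 (permutation p = 0.00269, adjusted p = 0.0108) and rho 0.71. The sample names number the libraries of Passport and Pilastro differently from those of the other varieties, and the relation was therefore also taken within these sets, a choice made after the data were seen. Within Golden Promise, Infinity and Regina r was 0.64 (permutation p = 0.0394), and within Passport and Pilastro it was 0.45 (permutation p = 0.203). Both values of a library were divided by the same library total, and r was 0.55 with or without TMM scaling. These libraries were pools of 3 plants, so a shared deviation can lie in the plants, the tissue sampled or the library.

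**Figure D3:**
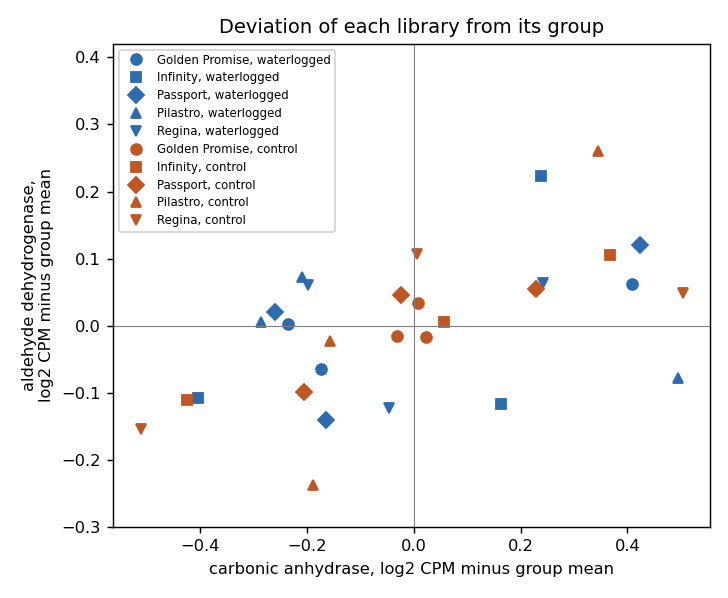
Deviation of each library from the mean of its group in log2 CPM, carbonic anhydrase gene on the horizontal and aldehyde dehydrogenase gene on the vertical axis; waterlogged libraries in blue, control libraries in orange, and 1 symbol per variety. Of the 30 points, 21 have the same sign on both axes, r is 0.32 in the 15 waterlogged and 0.76 in the 15 control libraries.

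Other genes with the same annotations were followed to see whether they moved in the same way. The gene tables at hand gave 22 further aldehyde dehydrogenase genes, of which 16 passed the filter. By edgeR, 1 of these was called lower in at least 1 variety and 0 were called higher, a share of 6.25% against 7.9% of all genes tested. In single varieties, the genes called lower made up 0.0632% of all genes in Golden Promise, 0.355% in Passport, 0.923% in Infinity, 1.36% in Pilastro and 1.49% in Regina, and those called higher 0.379% in Golden Promise, 0.729% in Passport, 2.46% in Pilastro, 2.56% in Regina and 3% in Infinity. At an unadjusted p under 0.05, 5 of the 16 were lower and 3 higher in at least 1 variety, against 18.9% of all genes lower and 20.8% higher. DESeq2 called 2 lower and 2 higher of the 18 to which it gave an adjusted p, against 5.06% of all such genes lower and 8.62% higher. The median log2 fold change of the 16 genes lay between −0.22 (Regina) and −0.07 (Passport and Pilastro), beside −0.03 to 0 for all genes tested. It was negative in all 5 varieties in 8 of the 16 genes, against 21.4% of all genes.

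The aldehyde dehydrogenase gene called lower was HORVU.MOREX.r3.7HG0671360. Its level was 135 ± 21.8 CPM in waterlogged and 245 ± 34.6 CPM in control roots of Pilastro, 152 ± 41.1 in waterlogged and 266 ± 12.4 in control roots of Regina, and 152 ± 40.0 in waterlogged and 256 ± 7.64 in control roots of Infinity (SD, n = 3 each). The log2 fold changes were −0.86 (SE 0.17, edgeR adjusted p = 0.00638) in Pilastro, −0.81 (SE 0.17, edgeR adjusted p = 0.00484) in Regina and −0.76 (SE 0.17, edgeR adjusted p = 0.0108) in Infinity. The call in Infinity was lost without Infinity control library 2, waterlogged library 1 or waterlogged library 2, and that in Pilastro without Pilastro waterlogged library 3. None of these calls was made when each variety was fitted alone. The gene was not called in Passport, with a log2 fold change of −0.66 and an adjusted p of 0.0526 by edgeR, or in Golden Promise, with −0.39 and an adjusted p of 0.645. In Passport it was called lower when that variety was fitted alone and with DESeq2. Over all varieties it ran from 109.8 to 198 CPM in the waterlogged and from 220.0 to 285 CPM in the control libraries, without overlap. It is therefore 1 of the 14 genes with fully separated treatments, beside the 2 genes described here.

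The carbonic anhydrase genes at hand are only part of the family. HORVU.MOREX.r3.7HG0649020 was known by name from the study's own list of changed genes, so its change is no independent evidence of how the family responded. Of the carbonic anhydrase genes at hand beside the one described above, it was the only one with enough counts to be tested. It was not called lower, which holds for most genes. Those called lower made up 0.0632% (Golden Promise) to 1.49% (Regina) of all genes tested. HORVU.MOREX.r3.7HG0649020 itself had a positive log2 fold change in all 5 varieties, of 2.17 in Infinity (SE 0.47, edgeR adjusted p = 0.00964), 1.40 in Regina (adjusted p = 0.0928), 1.17 in Passport (adjusted p = 0.214), 0.91 in Golden Promise (adjusted p = 0.766) and 0.15 in Pilastro (adjusted p = 0.889). By edgeR, only the change in Infinity was called. There it had 11.4 ± 3.72 CPM in waterlogged and 2.53 ± 0.71 CPM in control roots (SD, n = 3 each). The call was lost without Infinity control library 2 or 3, and when Infinity was fitted alone. DESeq2 also called the gene higher in Regina. There it had 2.41, 16.6 and 6.21 CPM in waterlogged roots, against 3.15, 3.43 and 2.95 CPM in control roots. The treatments thus overlapped in Regina, as they did in Pilastro. The edgeR F-test of whether the response to waterlogging differed between varieties called 0% of all genes tested, so nothing about this gene can be read from it. It had 25 to 234 counts in waterlogged and 21 to 157 counts in control libraries. The genes named alpha carbonic anhydrase 1, HORVU.MOREX.r3.2HG0182330 and HORVU.MOREX.r3.4HG0364070, had 0 counts in all 30 libraries, which allows up to 3 counts per library, or 0.237 to 0.310 CPM by counting error alone.

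**Figure D4:**
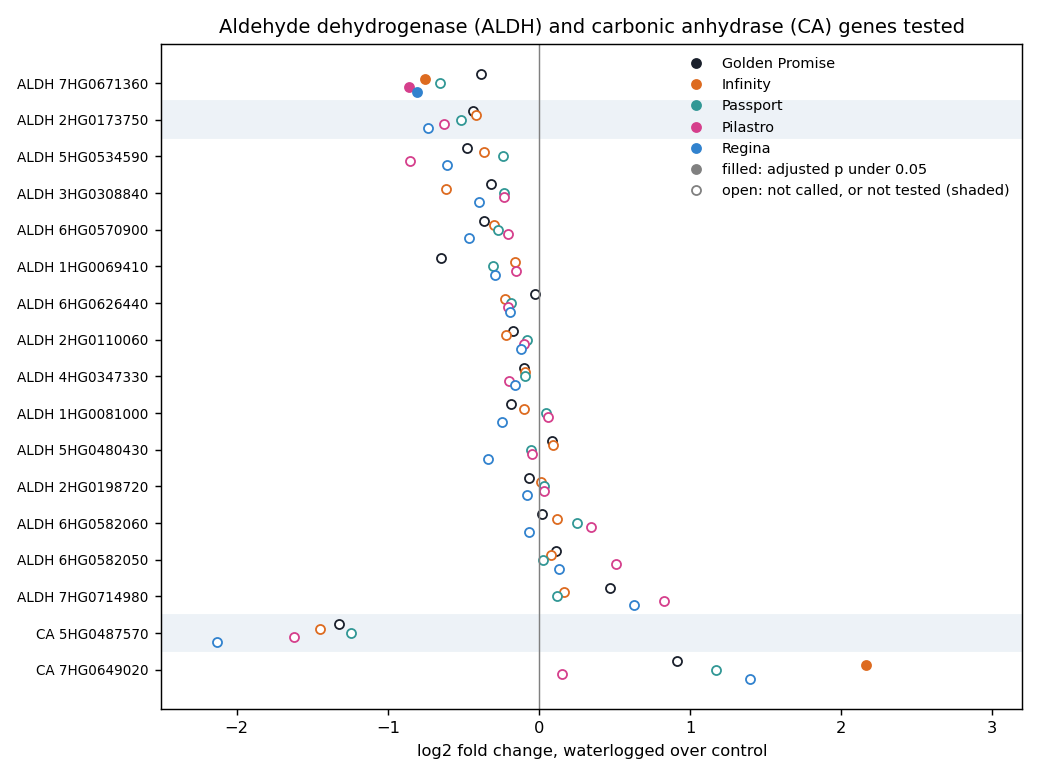
Log2 fold change of waterlogged over control roots (horizontal axis) for 17 of the 19 aldehyde dehydrogenase (ALDH) and carbonic anhydrase (CA) genes tested, 1 row per gene and 1 color per variety; 2 genes with a library at 0 counts are left out because their fitted change depends on the prior count. Filled points are edgeR calls; the shaded rows are the genes chosen on this contrast, for which no test is given. The carbonic anhydrase genes lie on opposite sides of 0, and ALDH 7HG0671360 lies beside the chosen aldehyde dehydrogenase gene.

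Genes of the neighboring steps of acetaldehyde and acetate metabolism were counted in the same way. Of 30 alcohol dehydrogenase genes tested, 5 were called higher and 1 lower in at least 1 variety, a share of 20% against 7.9% of all genes. DESeq2 called 6 higher and 2 lower of the 31 to which it gave an adjusted p, against 8.62% and 5.06% of all such genes. At an unadjusted p under 0.05, 8 of the 30 were higher and 8 lower, against 20.8% and 18.9% of all genes. HvADH1 (HORVU.MOREX.r3.4HG0345760) and its neighbor on chromosome 4H, HORVU.MOREX.r3.4HG0345740, were called higher in all 5 varieties. The second of these ran from 199 to 2712 CPM in waterlogged and from 5.71 to 123 CPM in control roots. The counts of such close relatives depend on how reads that fit both were assigned, which is not given in the sources used here. HORVU.MOREX.r3.1HG0082960 (5.88 to 1001 CPM in waterlogged and 0 to 14.0 CPM in control roots) and HORVU.MOREX.r3.3HG0252910 (0 to 44.9 CPM in waterlogged and 0 to 3.07 CPM in control roots) were called higher in 4 varieties. In Passport, HORVU.MOREX.r3.3HG0252910 had 0 counts in all waterlogged libraries and 0 to 24 counts in control libraries. Its log2 fold change there was −5.95 (SE 2.70, edgeR adjusted p = 0.337). HORVU.MOREX.r3.2HG0115170 (25.7 to 172 CPM in waterlogged and 0 to 16.0 CPM in control roots) was called higher in 3.

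In the lists downstream of acetaldehyde and of bicarbonate, edgeR made calls for 1 to 3 genes each. The genes named here were singled out after their values were seen. Of 16 acetyl-coenzyme A synthetase genes tested, 2 were called higher (HORVU.MOREX.r3.4HG0409410 and HORVU.MOREX.r3.5HG0504700) and 1 lower (HORVU.MOREX.r3.4HG0409360), a share of 18.75% against 7.9% of all genes. At an unadjusted p under 0.05, 5 of the 16 were higher and 4 lower, against 20.8% and 18.9% of all genes. Aldehyde oxidases, which also turn aldehydes into acids but use molecular oxygen, had 1 of 5 genes tested called lower, a share of 20% against 7.9% of all genes. This was HORVU.MOREX.r3.5HG0517330, with log2 fold changes from −1.39 to −0.69 and calls in Infinity and Regina. DESeq2 called 2 of the 5 lower and 0 higher, against 5.06% and 8.62% of all genes to which it gave an adjusted p. At an unadjusted p under 0.05, 4 of these 5 were lower in at least 1 variety and 0 higher, against the 18.9% and 20.8% of all genes given above. Acetyl-coenzyme A carboxylase, which uses bicarbonate, the product of carbonic anhydrase, had 1 of 8 genes tested called lower, a share of 12.5% against 7.9% of all genes. This was HORVU.MOREX.r3.3HG0319370, with log2 fold changes from −0.70 to −0.34 and calls in Pilastro and Regina. At an unadjusted p under 0.05, 2 of the 8 were lower and 2 higher, against 18.9% and 20.8% of all genes. The median log2 fold change of the aldehyde oxidase genes was between −0.76 (Infinity) and −0.45 (Golden Promise), and those of the alcohol dehydrogenase, synthetase and carboxylase lists lay between −0.20 and 0.18.

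The patterns of the 2 genes over the 10 group means were close to each other, with a Pearson r of 0.97. Of all genes tested, 7 were more like the carbonic anhydrase gene than the aldehyde dehydrogenase gene was, and 4 were more like the aldehyde dehydrogenase gene than the carbonic anhydrase gene was. These correlations describe the shared step between waterlogged and control groups and carry no test. The named genes most like the carbonic anhydrase gene were a Kelch repeat-containing F-box protein-like gene (HORVU.MOREX.r3.3HG0312620, r = 0.995), a beta-glucosidase (HORVU.MOREX.r3.2HG0181510, r = 0.990), phosphoribosylformylglycinamidine synthase (HORVU.MOREX.r3.2HG0162570, r = 0.978), an enzyme of purine synthesis, the aldehyde dehydrogenase HORVU.MOREX.r3.7HG0671360 (r = 0.975) and an O-fucosyltransferase-like protein (HORVU.MOREX.r3.5HG0502730, r = 0.974). No unnamed gene ranked above the last of them.

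The named genes most like the aldehyde dehydrogenase gene were a PAT1-1-like protein (HORVU.MOREX.r3.3HG0291710, r = 0.982), a putative vacuolar cation/proton exchanger (HORVU.MOREX.r3.3HG0266310, r = 0.975), a NAC domain protein (HORVU.MOREX.r3.7HG0690460, r = 0.971), the carbonic anhydrase gene and serine hydroxymethyltransferase (HORVU.MOREX.r3.4HG0340820, r = 0.970), an enzyme of one-carbon metabolism, with 1 unnamed gene above the last of them. The likeness concerns the pattern and not its size. The cation/proton exchanger had log2 fold changes between −2.45 and −1.54 and the PAT1-1-like gene between −0.41 and −0.21. Names were at hand for 3798 of the genes tested, some of them because the study listed the gene as changed, so the ranking passes over genes without a name.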

How the data were processed

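Single-end reads of 50 bp were aligned by the authors to the Morex version 3 genome with bowtie2 2.4.5 and SAMtools 1.15.1, and StringTie 2.1.7 gave the counts per gene that the authors deposited, which are not normalized. Read trimming, the strand setting and the rule for reads matching more than 1 gene are not given in the sources used here, so counts of near-identical or overlapping genes are uncertain. All columns were used (0 unused). Total counts per library were 9601984 to 12349136. No reference genome or sequence table was at hand and 0 gene IDs matched the 58438 RefSeq entries, so no sequence is shown and names are those of the study's gene tables.

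Counts were analyzed with R 4.3.3 and edgeR 4.0.16, using TMM, filterByExpr and the quasi-likelihood test, with 1 coefficient for each of the 10 groups and all 30 libraries in 1 fit (common dispersion 0.0653). P-values were adjusted over all 20576 genes tested by the Benjamini-Hochberg method, and genes with an adjusted p under 0.05 are called. Standard errors were derived from the F statistics. Log2 CPM used a prior count of 2. The edgeR tests of waterlogged against control roots in Regina and Infinity, and of levels within a treatment, were checked on simulated counts. The simulation used the same dispersion for all genes. It did not cover the tests of mean level, of pairs of varieties, of differing responses or of the within-group correlation. Tests of levels in control or waterlogged roots alone are not given, since these levels are part of the contrast that chose the genes. Figures were drawn with matplotlib 3.10.9. Members, lists and naming rule were set with earlier results of these data known. Named were the pair of genes, all carbonic anhydrases at hand, the aldehyde dehydrogenases called in at least 1 variety, genes of the other lists called in at least 3 (5 further genes of these lists were named after their values were seen), the 5 named genes most like each member of the pair, and HvADH1, HvPDC1 and HvHB.

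Alternatives were DESeq2 1.42.0 and its size factors, no filter and a filter of at least 50 counts in 3 libraries, a replicate block, separate fits, other settings of log2 CPM, and leaving out each library in turn with the dispersion trend of the full fit. Libraries of 1 group differed by far more than sampling noise (chi-square per degree of freedom of at least 13.1), so none was counted as a repeat deposit. Whether replicate numbers pair libraries was checked with 13237 genes, by correlating how far same-numbered waterlogged and control libraries deviated from their group means. All 3 were above 0.1 in Passport (0.30, 0.41 and 0.20) and Regina (0.18, 0.38 and 0.50), where the numbers were taken as pairs. The values were mixed in Golden Promise (−0.04, 0.31 and 0.29), Infinity (−0.09, 0.24 and 0.19) and Pilastro (0.24, −0.07 and 0.54). There the numbers were not taken as pairs, although some pairing may exist. The experiment was run independently 3 times, and whether a number marks a run is not given in the sources used here.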

Additional observations from a re-analysis of the deposited data

How the results depend on the processing

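In 723 of 751 alternatives of 21 results the outcome was the same by the rule set for its kind, and in 28 it was not. Only the log2 fold changes (360 alternatives) and the within-group correlation (35) could reverse, and 0 did so. The log2 fold changes of the pair of genes moved by less than the SD between replicates under each alternative. For the fits without 1 library this could hardly be otherwise, since leaving out 1 of 3 libraries moves a mean by less than that SD. The genes were chosen on this contrast, so the outcome describes the fits and is no evidence for the change. With the replicate block, the log2 fold changes were −2.08 and −0.73 in Regina and −1.27 and −0.52 in Passport (carbonic anhydrase first). The block changed the number of called genes in 3 lists, to 2 for the other aldehyde dehydrogenases, against 1 without it, to 11 for the alcohol dehydrogenases, against 6, and to 2 for the acetyl-coenzyme A synthetases, against 3. These counts include calls in Infinity and Pilastro, where the numbers were not taken as pairs. The F-tests of mean level across varieties stayed above the threshold in all 72 alternatives run, which include the sets of varieties with the same numbering but no block. Of the pairs of varieties, 0 to 1 were called for either gene without single libraries (carbonic anhydrase, Golden Promise and Pilastro, without 5 libraries; aldehyde dehydrogenase, Pilastro and Regina, without Pilastro control 1), and 0 under the other alternatives.

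Counts of called list genes were as reported in 173 of 216 alternatives and differed in 43, in 21 of them by over 1.5 times, and the cause was not tested. The other aldehyde dehydrogenases called numbered 2 with the stricter filter and 4 with DESeq2, and 1 to 3 without single libraries. They numbered over 1 without Infinity control 2 or 3, Infinity waterlogged 3, Passport control 1, Pilastro waterlogged 1, 2 or 3 or Regina control 1. Aldehyde oxidases called numbered 2 with DESeq2, 2 with each variety fitted alone, and 1 to 3 without single libraries (over 1 without Infinity control 3 or Regina control 3). With each variety fitted alone, 0 carbonic anhydrases and 0 acetyl-coenzyme A synthetases were called, and without single libraries 0 to 1 and 1 to 3. The synthetases fell to 1 without Infinity control 1. Of the 34 calls in the lists, 13 held without any 1 of the 30 libraries, 33 held with DESeq2, 31 with the block and 12 with each variety fitted alone. The within-group correlation, 0.48 to 0.67 without single libraries, had r = 0.45 and a permutation p of 0.203 within Passport and Pilastro, an alternative chosen after seeing the data. Each group held 3 libraries, and the carbonic anhydrase gene had 132 to 979 counts per library, so a difference between varieties that was not called may still exist within the printed intervals.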
